A study of Homo sapiens with 12 samples.

Results

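The interferon-stimulated genes are genes whose mRNA rises when a cell senses interferon. A list of 39 of them was taken by gene symbol, and all 39 were found among the 26506 genes of the deposited table. They were measured by RNA sequencing in HK-2 cells, which descend from human kidney proximal tubule epithelium and were immortalised for culture. The 12 samples fall into 4 groups of 3, named after the short hairpin RNA the cells carried. The group shVHL61-KIM1A1 carried a hairpin against VHL together with one against KIM-1 (gene HAVCR1), shKIM1-A1 carried the KIM-1 hairpin alone, shVHL61 carried the VHL hairpin alone, and Luc976 served as the control, a reading that rests on its name, which appears to stand for luciferase. No interferon or virus treatment is given in the labels for any group. Each knockdown was represented by the named hairpin only, and the sources used here do not say if the 3 samples per group were cultured separately. The p-values therefore describe how far these samples scatter, and that scatter may be technical.

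Type I and type III interferons bind receptors on the cell surface and activate the kinases JAK1 and TYK2. These phosphorylate STAT2, which joins IRF9 in the complex ISGF3. ISGF3 binds the interferon-stimulated response element (ISRE) in the promoters of its targets, while interferon gamma acts mainly through the GAS element. The targets include proteins that block viral entry (the IFITM family), bind viral RNA (the IFIT and OAS families), attach the ubiquitin-like ISG15 to other proteins (HERC5) or sense viral RNA in the cytosol (DDX58, also called RIG-I, and IFIH1, also called MDA5). Many are expressed at a low level in epithelial cells without added interferon.

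Libraries held 16500965 to 21089716 counts, and 14230 genes, among them 34 of the 39 members, had enough counts to be tested. HAVCR1 mRNA stood at 99.04, 80.8 and 71.3 CPM (counts scaled to a library of 1000000) in shVHL61-KIM1A1, 60.6, 52.03 and 58.4 in shKIM1-A1, 132, 152 and 146 in shVHL61 and 113, 133 and 116 in Luc976. VHL mRNA stood at 43.4, 38.2 and 43.2 CPM in shVHL61-KIM1A1, 60.03, 61.05 and 57.4 in shKIM1-A1, 39.3, 37.3 and 37.8 in shVHL61 and 52.8, 53.4 and 53.5 in Luc976. Each hairpin's target was therefore lower in every sample that carried it than in any sample that did not. The epithelial genes KRT8, KRT18, KRT19, PAX8, EPCAM and GGT1 were expressed, with a summed level of 12 kidney epithelial markers between 2284 and 2799 TPM (a level per transcript length, summing to 1000000 in a library) in all samples, while LRP2, a defining marker of the proximal tubule, was at 0 counts and CUBN and AQP1 stayed below 0.1 TPM in every group mean. Of 9 immune markers, CD3E and MS4A1 were at 0 in all groups and PTPRC did not exceed a mean of 0.04 TPM, and the list's summed level was 165.5 to 170.1 TPM in shVHL61-KIM1A1, 148.2 to 156.8 in shKIM1-A1, 147.8 to 157.3 in shVHL61 and 132.8 to 140.2 in Luc976, nearly all of it CD68. The summed level of 4 endothelial markers was 1.01 to 1.36 TPM in shVHL61-KIM1A1, 0.03 to 0.37 in shKIM1-A1, 0.33 to 0.60 in shVHL61 and 0.41 to 0.56 in Luc976, and that of 5 fibroblast markers, mostly LUM, was 130.0 to 155.4, 110.5 to 147.2, 109.6 to 135.5 and 104.1 to 119.7 TPM in the same groups. Of the 4 fibroblast markers tested, 3 were lower in each hairpin group than in Luc976, among them DCN, with means of 0.043 TPM in shVHL61-KIM1A1, 2.04 in shKIM1-A1 and 1.55 in shVHL61, against 2.96 in Luc976. The part of these marker levels in the results that follow was not tested.

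Among the tested members, mean levels per length in Luc976 ran from 0.357 TPM for SAMD9L to 425 TPM for BST2. In Luc976, 2 members averaged at least 100 TPM, 15 averaged 10 to 100 TPM, 14 averaged 1 to 10 TPM and 8 stayed under 1 TPM. BST2, which tethers budding virus to the membrane, was the most abundant, with means of 424 TPM in shVHL61-KIM1A1, 484 in shKIM1-A1, 393 in shVHL61 and 425 in Luc976, and it passed the test in none of the comparisons. IFITM3 came next with 159.7 TPM in shVHL61-KIM1A1, 61.9 in shKIM1-A1, 139.5 in shVHL61 and 130.0 in Luc976. At the low end, MX1, whose product blocks influenza virus and which is widely used as a readout of interferon exposure, averaged 0.837, 0.767 and 0.730 TPM in shVHL61-KIM1A1, shKIM1-A1 and shVHL61, against 0.817 TPM in Luc976. The remaining 5 members listed here had too few counts for the test. IFI27 had 18, 28, 24 and 19 counts summed over the 3 samples of shVHL61-KIM1A1, shKIM1-A1, shVHL61 and Luc976, OAS2 had 7, 1, 11 and 10, and TRIM22 had 25, 19, 6 and 8 in the same order of groups. MX2 had 0 counts in shVHL61-KIM1A1 and 1 in each other group, and XAF1 had 0, 1, 3 and 1. A total of 3 counts or fewer in a group cannot be told from 0 at this depth.

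**Figure D1:**
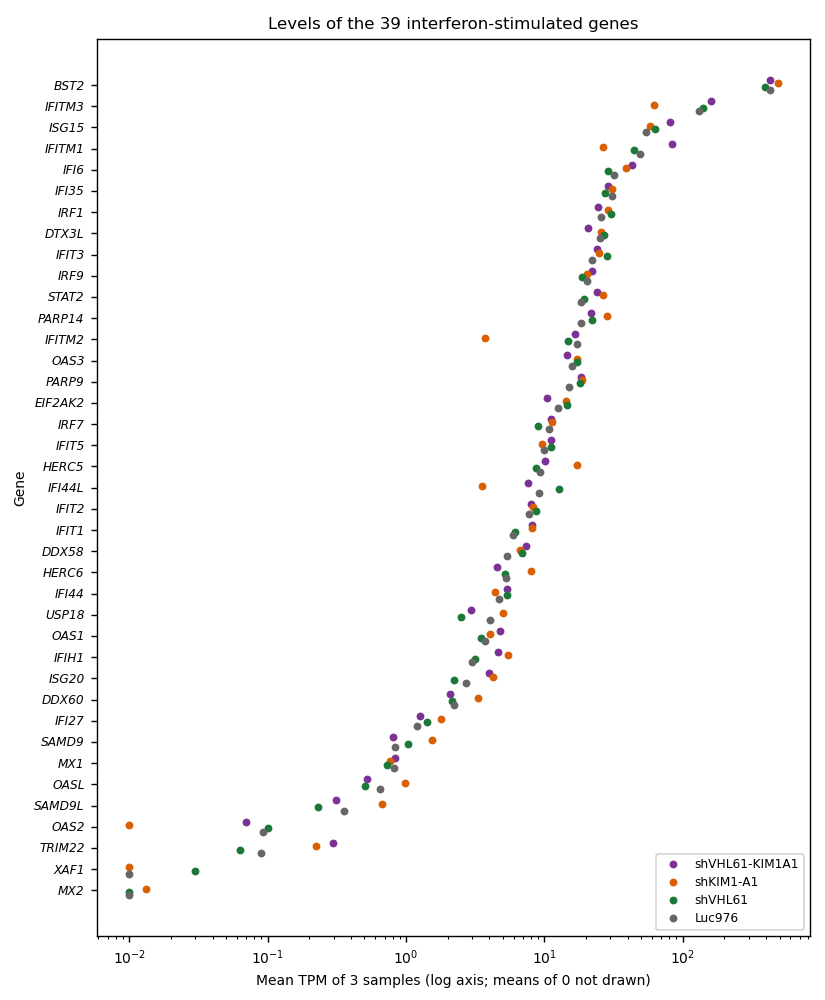
Mean TPM of each of the 39 members in the 4 groups (points, 3 samples each, log axis), ordered by the mean in Luc976. BST2 and IFITM3 lie above 100 TPM in Luc976, and IFITM2, IFITM1, IFITM3 and IFI44L have their shKIM1-A1 point to the left of the other groups.

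Across the 34 tested members, no comparison moved the whole list in a single direction. A gene passed where its adjusted p in edgeR's quasi-likelihood test, adjusted over all 14230 genes, was under 0.05. In shVHL61-KIM1A1 against Luc976, 14 members were higher and 1 lower, where 25.2% of all tested genes were higher and 26.3% lower, and the members' median log2 fold change was 0.17 against 0.01 over all genes. In shKIM1-A1 against Luc976, 10 members were higher and 4 lower (14.8% and 16.6% of all genes), with a median of 0.08 against 0.01. In shVHL61 against Luc976, 5 members were higher and 1 lower (7.21% and 9.44% of all genes), with a median of 0.08 against -0.01. These comparisons share the Luc976 samples. Counted in either direction, 44.1% of the members passed in shVHL61-KIM1A1 (51.4% of all genes), 41.2% in shKIM1-A1 (31.4%) and 17.6% in shVHL61 (16.7%), so the share that changed was below or near the background in the double and the VHL group.

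The KIM-1 hairpin was also compared within cells carrying the VHL hairpin. In shVHL61-KIM1A1 against shVHL61, 12 members were higher and 5 lower, where 21.2% and 21.3% of all genes were, and the median was 0.17 against 0.01. In shVHL61-KIM1A1 against shKIM1-A1, 9 members were higher and 6 lower (21.1% and 20.9% of all genes), with a median of 0.11 against 0.00. The interaction (the change that the KIM-1 hairpin made in the presence of shVHL61, less the change it made alone) was above 0 for 6 members and below 0 for 6 (10.2% and 9.52% of all genes). The share of members past the threshold was 17 of 34 in shVHL61-KIM1A1 against shVHL61 (42.6% of all genes), 44.1% against shKIM1-A1 (42.0%) and 35.3% for the interaction (19.8%). When TPM values were used in place of counts, the median of all genes itself moved by -0.15 in shVHL61-KIM1A1 against shKIM1-A1 and by -0.13 in the interaction, and the members then split into 5 higher and 12 lower and into 4 higher and 8 lower. Of the 34, 28 passed in at least 1 of the 6 comparisons, which is 82.4% of them and 72.2% of all tested genes, and IFI35, IFI44, IFIT2, MX1, OASL and BST2 passed in none. Libraries were also split into 2 sets by the sign of a trend with transcript GC content, taken on deviations from their own group mean. Such deviations balance within a group, so signs of both kinds in every group were close to forced. Values within set A and set B are given below beside the main ones. In these bulk samples, fewer cells expressing a gene and less of its RNA per cell cannot be told apart.

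**Figure D2:**
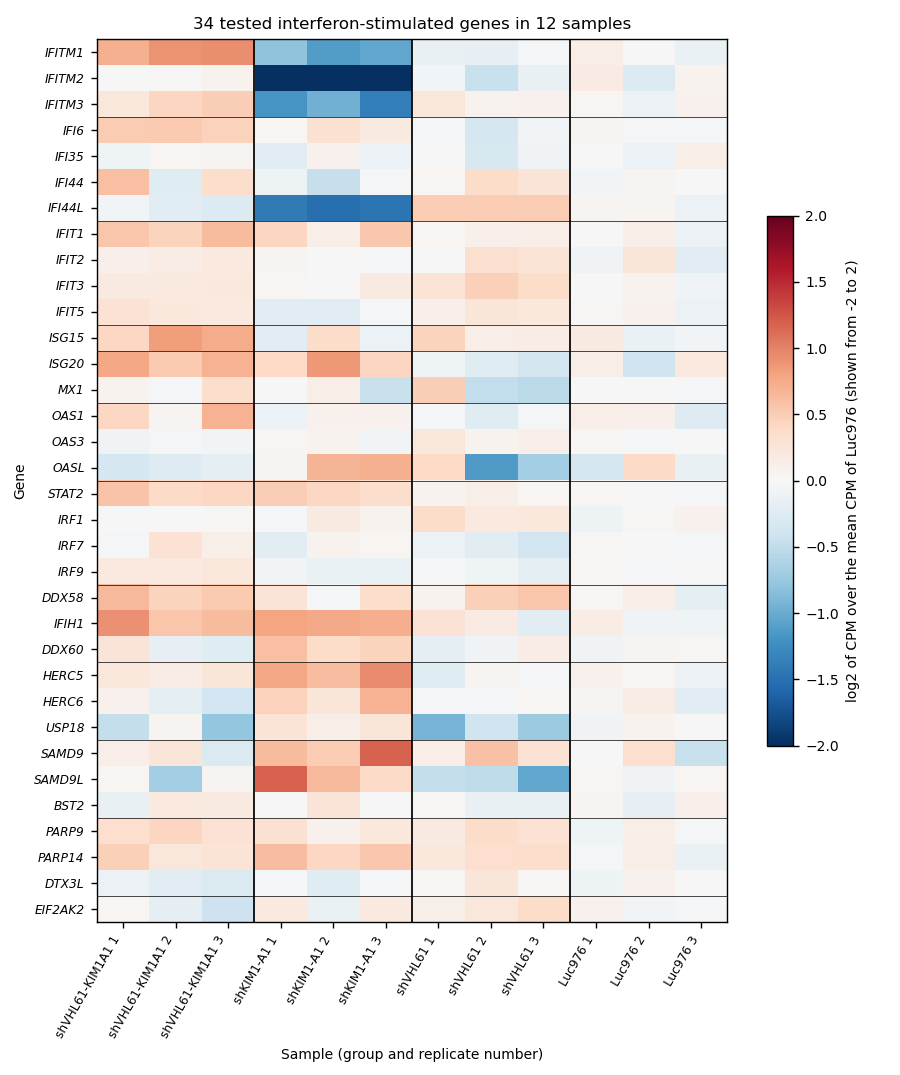
Each cell is the log2 of a sample's CPM over the mean CPM of the 3 Luc976 samples, for the 34 tested members (rows, grouped by role) in 12 samples (columns). IFITM1 to IFITM3 and IFI44L are low (blue) in all 3 shKIM1-A1 samples, and IFITM1 is high (red) in all 3 shVHL61-KIM1A1 samples.

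Promoter sequences were looked at because the list was drawn from genes of a shared response, while the hairpin groups split it. RefSeq promoters (GRCh38.p14, 250 bases before to 50 after the start) were matched for 31 of the 39 members, and the ISRE core GAAANNGAAA was searched on both strands, where N is any base. It was present in 22 of the 31 members and in 4.38% of the 27305 promoters of all genes. The GAS core TTCNNNGAA was present in 10 of the 31 and in 9.38% of all promoters; the letters of both motifs can overlap. An ISRE match was found in all 3 of the members with a promoter that fell in shKIM1-A1 against Luc976, in 7 of the 10 that rose and in 11 of the 16 that did not pass, so members on both sides of that comparison carried these letters. The promoters of STAT2, IRF9 and IRF1 held no ISRE match, and those of IRF9 and IRF1 each held a GAS match.

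The 7 stretches that follow show members that went different ways, 200 bases before to 10 bases after the RefSeq start, read 5' to 3' on the gene's strand, with the ISRE core in capitals (TTTCNNTTTC where it lies on the other strand). IFITM1 (chr11:313840-314049, plus strand) and IFITM3 (chr11:320851-321060, minus strand) fell with the KIM-1 hairpin alone and carried 2 matches each, as did IFI44L (chr1:78620248-78620457, plus strand), where the 2 matches lie in copies of a repeated stretch. IFI6 (chr1:27672183-27672392, minus strand) rose in the double group. IFIH1 (chr2:162318675-162318884, minus strand) and HERC5 (chr4:88456919-88457128, plus strand) rose with the KIM-1 hairpin alone and had 3 matches each, of which 2 overlap. STAT2 (chr12:56360098-56360307, minus strand) rose as well and had none. A match describes letters in this window and is not evidence that a factor was bound.
IFITM1: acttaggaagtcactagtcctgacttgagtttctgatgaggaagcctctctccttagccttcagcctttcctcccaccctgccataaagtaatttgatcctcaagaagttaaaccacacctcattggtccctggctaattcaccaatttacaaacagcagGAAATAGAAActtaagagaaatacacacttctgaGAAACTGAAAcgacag
IFITM3: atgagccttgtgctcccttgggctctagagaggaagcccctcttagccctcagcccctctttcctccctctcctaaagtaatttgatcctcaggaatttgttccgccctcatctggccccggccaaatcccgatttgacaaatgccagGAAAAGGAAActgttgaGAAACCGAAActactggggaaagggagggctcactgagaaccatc
IFI44L: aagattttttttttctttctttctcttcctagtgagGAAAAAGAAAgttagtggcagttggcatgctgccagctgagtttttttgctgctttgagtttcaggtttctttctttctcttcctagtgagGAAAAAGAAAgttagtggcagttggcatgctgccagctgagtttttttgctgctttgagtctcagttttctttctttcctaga
IFI6: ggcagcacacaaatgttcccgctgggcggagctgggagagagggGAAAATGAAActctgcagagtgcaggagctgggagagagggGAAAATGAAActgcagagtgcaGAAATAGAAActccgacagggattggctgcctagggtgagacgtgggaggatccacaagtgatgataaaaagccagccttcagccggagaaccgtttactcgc
IFIH1: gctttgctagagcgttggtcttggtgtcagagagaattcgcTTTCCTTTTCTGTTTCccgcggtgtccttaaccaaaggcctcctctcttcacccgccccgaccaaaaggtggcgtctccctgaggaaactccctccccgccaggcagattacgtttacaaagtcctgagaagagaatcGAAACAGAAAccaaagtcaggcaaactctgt
HERC5: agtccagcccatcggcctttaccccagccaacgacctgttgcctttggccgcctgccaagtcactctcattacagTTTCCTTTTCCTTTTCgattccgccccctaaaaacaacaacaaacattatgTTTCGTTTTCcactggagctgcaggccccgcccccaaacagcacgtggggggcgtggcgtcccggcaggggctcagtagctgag
STAT2: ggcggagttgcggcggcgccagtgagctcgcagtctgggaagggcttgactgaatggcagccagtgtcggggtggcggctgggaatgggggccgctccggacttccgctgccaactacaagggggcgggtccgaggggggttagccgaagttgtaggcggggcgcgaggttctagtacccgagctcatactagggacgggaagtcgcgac

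The IFITM genes, neighbours on chromosome 11 that encode membrane proteins blocking the fusion of viruses with the cell, showed, with IFI44L, the largest differences among the members past the threshold. All 3 fell with the KIM-1 hairpin alone, and none fell when it was added to the VHL hairpin. IFITM1 stood at 26.2, 29.6 and 30.3 CPM in shVHL61-KIM1A1, 9.16, 7.33 and 7.72 in shKIM1-A1, 14.4, 14.1 and 15.6 in shVHL61 and 17.4, 15.9 and 14.4 in Luc976. The shVHL61-KIM1A1 samples were the highest and the shKIM1-A1 samples the lowest, and neither overlapped another group. Against Luc976, IFITM1 rose by 0.85 on the log2 scale (SE 0.10, adjusted p = 2.19e-06) in shVHL61-KIM1A1 and fell by 0.98 on the log2 scale (SE 0.11, adjusted p = 5.37e-06) in shKIM1-A1, and shVHL61 differed by -0.12 (95% interval -0.33 to 0.09, adjusted p = 0.454). It also rose by 0.96 on the log2 scale (SE 0.10, adjusted p = 1.11e-06) in shVHL61-KIM1A1 over shVHL61.

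IFITM2 stood at 5.68, 5.85 and 5.998 CPM in shVHL61-KIM1A1, 1.05, 1.21 and 1.18 in shKIM1-A1, 5.49, 4.21 and 5.17 in shVHL61 and 6.42, 4.76 and 6.01 in Luc976. Its shKIM1-A1 samples held 20, 23 and 24 counts and lay below every other sample. Luc976 overlapped both groups with the VHL hairpin. The shVHL61-KIM1A1 samples lay above those of shVHL61, a difference of 0.24 on the log2 scale that did not pass (adjusted p = 0.185). The gene fell by 2.31 on the log2 scale (SE 0.18, adjusted p = 1.38e-07) in shKIM1-A1 against Luc976, and the fold was 0.202. In shVHL61-KIM1A1 it differed from Luc976 by 0.03 (95% interval -0.26 to 0.32, adjusted p = 0.865) and rose by 2.34 on the log2 scale (SE 0.18, adjusted p = 3.48e-08) over shKIM1-A1. IFITM3, which acts in endosomes, stood at 45.4, 52.3 and 54.8 CPM in shVHL61-KIM1A1, 17.1, 19.98 and 14.9 in shKIM1-A1, 45.4, 40.6 and 41.02 in shVHL61 and 39.8, 35.7 and 40.98 in Luc976. Its shKIM1-A1 samples were again below all others, while shVHL61-KIM1A1 lay above Luc976 and overlapped shVHL61 at its lowest sample. IFITM3 fell by 1.16 on the log2 scale (SE 0.10, adjusted p = 6.85e-07) in shKIM1-A1 and rose by 0.39 on the log2 scale (SE 0.10, adjusted p = 0.00281) in shVHL61-KIM1A1, both against Luc976. Over shVHL61 it rose by 0.26 on the log2 scale (SE 0.10, adjusted p = 0.0345) in shVHL61-KIM1A1, a call that was lost on leaving out any 1 of shVHL61 sample 2, shVHL61 sample 3, shVHL61-KIM1A1 sample 2 and shVHL61-KIM1A1 sample 3 (adjusted p from 0.098 to 0.15).

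These 3 transcripts are near copies in part, and the way reads were divided between them makes each value uncertain. Of the 50-base windows of the longest protein-coding GENCODE 29 transcript, 12.2% of IFITM1, 10.4% of IFITM2 and 17.9% of IFITM3 also occur in another of the 3. The deposited expected counts were whole in all 12 samples for IFITM2 and in 0 of 12 for IFITM1 and IFITM3. The authors' deposited table gives folds for shKIM1-A1 over Luc976 of 0.507 for IFITM1, 0.204 for IFITM2 and 0.447 for IFITM3, and folds for the double hairpin over Luc976 of 1.80, 1.02 and 1.31. Within the GC-trend library sets, the log2 fold change of shKIM1-A1 against Luc976 was -1.12 in set A and -0.92 in set B for IFITM1, -2.35 in set A and -2.08 in set B for IFITM2 and -1.01 in set A and -1.16 in set B for IFITM3. For the double group over shKIM1-A1 it was 2.03 in set A and 1.64 in set B for IFITM1, 2.28 in set A and 2.34 in set B for IFITM2 and 1.43 in set A and 1.51 in set B for IFITM3.

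**Figure D3:**
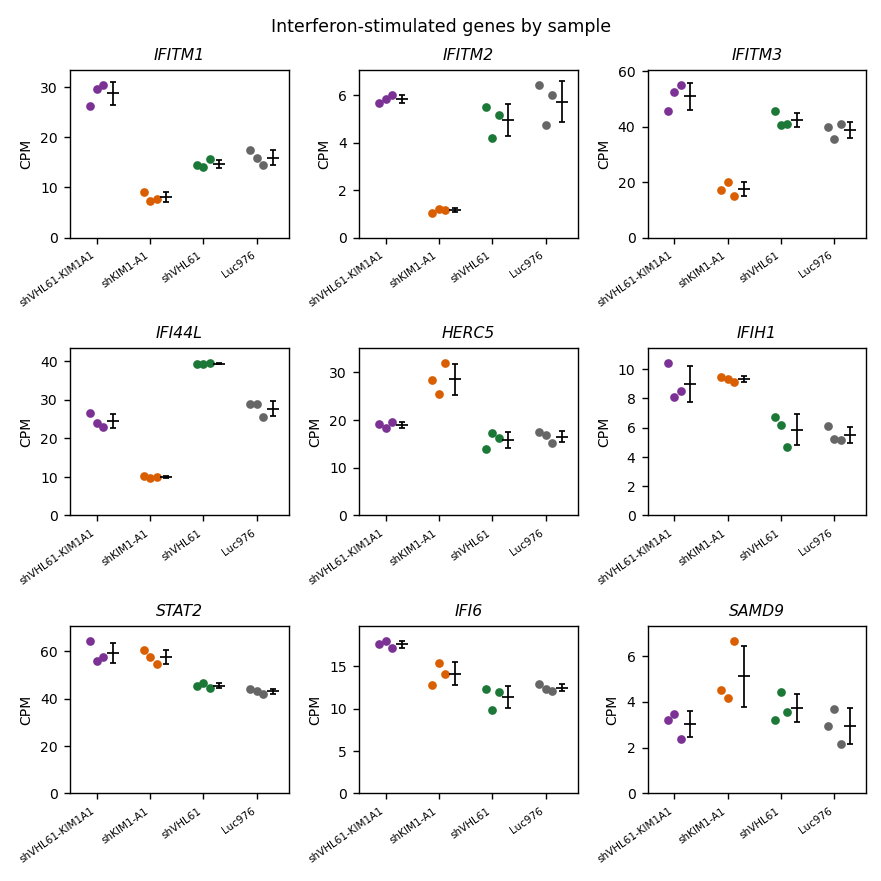
CPM of 9 members in each sample (points) with the mean and SD of the 3 samples of a group (black bars), axes from 0. IFITM1, IFITM2, IFITM3 and IFI44L have their lowest points in shKIM1-A1, HERC5 has its highest there, and IFIH1 and STAT2 are high in both groups with the KIM-1 hairpin.

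IFI44L, an interferon-induced gene reported to dampen antiviral signalling, followed the IFITM genes in shKIM1-A1 but not in the double group. It stood at 26.5, 24.01 and 22.8 CPM in shVHL61-KIM1A1, 10.3, 9.75 and 10.1 in shKIM1-A1, 39.3, 39.2 and 39.4 in shVHL61 and 28.8, 28.8 and 25.4 in Luc976. The shVHL61 samples were above and the shKIM1-A1 samples below all others, while shVHL61-KIM1A1 overlapped Luc976. IFI44L fell by 1.46 on the log2 scale (SE 0.08, adjusted p = 5.52e-09) in shKIM1-A1 and rose by 0.51 on the log2 scale (SE 0.07, adjusted p = 0.000186) in shVHL61, both against Luc976. In shVHL61-KIM1A1 it fell by 0.69 on the log2 scale (SE 0.07, adjusted p = 3.02e-06) against shVHL61 and rose by 1.28 on the log2 scale (SE 0.08, adjusted p = 7.21e-09) over shKIM1-A1. Within the library sets its change in shKIM1-A1 against Luc976 was -1.47 in set A and -1.50 in set B. IFI44, the next gene along chromosome 1, differed by -0.18 (95% interval -0.59 to 0.22, adjusted p = 0.489) in shKIM1-A1 against Luc976, and it passed in no comparison.

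IFI6, a mitochondrial and endoplasmic reticulum protein that restricts flaviviruses, was higher in the double group. It stood at 17.6, 17.97 and 17.2 CPM in shVHL61-KIM1A1, 12.7, 15.4 and 14.1 in shKIM1-A1, 12.3, 9.88 and 12 in shVHL61 and 12.9, 12.3 and 12.1 in Luc976. The shVHL61-KIM1A1 samples were above all 9 others, and Luc976 overlapped both single hairpin groups. IFI6 rose by 0.50 on the log2 scale (SE 0.10, adjusted p = 0.000468) against Luc976 and rose by 0.63 on the log2 scale (SE 0.10, adjusted p = 9.41e-05) against shVHL61. Over shKIM1-A1 it rose by 0.32 on the log2 scale (SE 0.10, adjusted p = 0.0131), a call lost without shKIM1-A1 sample 1 (adjusted p = 0.067). IFI35 lay between 14.7 and 19.9 CPM in all samples and passed in no comparison.

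The IFIT proteins bind viral RNA through tetratricopeptide repeats, and their 4 genes lie close together on chromosome 10. IFIT1, IFIT3 and IFIT5 passed as higher in shVHL61-KIM1A1 against Luc976, where 25.2% of all tested genes were higher. In each of the other 4 comparisons between groups 1 of the 4 passed, where 16.7% to 42.6% of all genes did, so that share was within the background. IFIT1 stood at 19.4, 18.03 and 20.5 CPM in shVHL61-KIM1A1, 17.8, 14.4 and 19.2 in shKIM1-A1, 13.7, 14.1 and 14.4 in shVHL61 and 13.1, 14.4 and 12.1 in Luc976. Each shVHL61-KIM1A1 sample was above each shVHL61 and Luc976 sample, and shKIM1-A1 overlapped Luc976 at its lowest sample. IFIT1 rose by 0.55 on the log2 scale (SE 0.10, adjusted p = 0.000414) in shVHL61-KIM1A1 against Luc976 and rose by 0.46 on the log2 scale (SE 0.10, adjusted p = 0.00208) against shVHL61. In shKIM1-A1 it rose by 0.37 on the log2 scale (SE 0.10, adjusted p = 0.0129) against Luc976, which was lost without Luc976 sample 3 (adjusted p = 0.0627) and without shKIM1-A1 sample 3 (adjusted p = 0.0767). IFIT3, the partner that stabilises IFIT1 on RNA, instead had its highest values in shVHL61, at 33.9, 39.1 and 36.2 CPM against 28.1, 29.3 and 26.5 in Luc976. These groups did not overlap, and IFIT3 rose by 0.38 on the log2 scale (SE 0.08, adjusted p = 0.00269) in shVHL61. In shVHL61-KIM1A1 against Luc976 IFIT3 rose by 0.20 on the log2 scale (SE 0.08, adjusted p = 0.0434), lost on leaving out any 1 of Luc976 sample 1, Luc976 sample 3, shVHL61-KIM1A1 sample 1, shVHL61-KIM1A1 sample 2 and shVHL61-KIM1A1 sample 3 (adjusted p from 0.0639 to 0.151). IFIT5 rose by 0.39 on the log2 scale (SE 0.08, adjusted p = 0.00133) in shVHL61-KIM1A1 over shKIM1-A1 and rose by 0.23 on the log2 scale (SE 0.08, adjusted p = 0.0257) over Luc976, the call against Luc976 being lost without Luc976 sample 3 (adjusted p = 0.12) and without shVHL61-KIM1A1 sample 1 (adjusted p = 0.079). IFIT2 lay between 11.8 and 17 CPM in all samples and passed in no comparison.

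ISG15 and the enzymes that attach it to proteins or remove it went different ways. ISG15 stood at 21.4, 28.5 and 26.8 CPM in shVHL61-KIM1A1, 13.7, 20.6 and 14.7 in shKIM1-A1, 21.9, 17.5 and 17.7 in shVHL61 and 18.1, 14.5 and 15.3 in Luc976. All shVHL61-KIM1A1 samples exceeded those of shKIM1-A1 and Luc976, and they overlapped shVHL61. ISG15 rose by 0.67 on the log2 scale (SE 0.15, adjusted p = 0.00113) in shVHL61-KIM1A1 against Luc976 and rose by 0.65 on the log2 scale (SE 0.14, adjusted p = 0.00201) against shKIM1-A1. Against shVHL61 it rose by 0.42 on the log2 scale (SE 0.14, adjusted p = 0.0256), lost on leaving out any 1 of shVHL61 sample 2, shVHL61 sample 3, shVHL61-KIM1A1 sample 2 and shVHL61-KIM1A1 sample 3 (adjusted p from 0.0843 to 0.11).

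HERC5, the main ligase that joins ISG15 to newly made proteins, was higher in shKIM1-A1. It stood at 19.2, 18.3 and 19.5 CPM in shVHL61-KIM1A1, 28.4, 25.4 and 31.9 in shKIM1-A1, 14, 17.2 and 16.2 in shVHL61 and 17.5, 16.8 and 15.3 in Luc976. The shKIM1-A1 samples were above all others, and the shVHL61-KIM1A1 samples were above those of shVHL61 and Luc976 by less than the range within shKIM1-A1. HERC5 rose by 0.79 on the log2 scale (SE 0.10, adjusted p = 1.8e-05) in shKIM1-A1 against Luc976, with 0.63 in set A and 0.84 in set B, and it fell by 0.59 on the log2 scale (SE 0.10, adjusted p = 0.000139) in shVHL61-KIM1A1 against shKIM1-A1. Its difference of 0.27 (SE 0.10, adjusted p = 0.0411) between shVHL61-KIM1A1 and shVHL61 was lost on leaving out any 1 of shVHL61 sample 1, shVHL61 sample 3, shVHL61-KIM1A1 sample 1, shVHL61-KIM1A1 sample 2 and shVHL61-KIM1A1 sample 3 (adjusted p from 0.0577 to 0.178). HERC6, its neighbour on chromosome 4, stood at 11.1, 9.17 and 8.02 CPM in shVHL61-KIM1A1, 14.5, 12.5 and 16.97 in shKIM1-A1, 10.3, 10.3 and 10.8 in shVHL61 and 10.9, 11.7 and 8.98 in Luc976. HERC6 rose by 0.48 on the log2 scale (SE 0.13, adjusted p = 0.0107) in shKIM1-A1 against Luc976, lost without Luc976 sample 3 (adjusted p = 0.0588) and without shKIM1-A1 sample 3 (adjusted p = 0.068), and fell by 0.64 on the log2 scale (SE 0.13, adjusted p = 0.00111) in shVHL61-KIM1A1 against shKIM1-A1. USP18, which removes ISG15 and restrains the type I receptor, had 2.14, 3.11 and 2.43 CPM in shVHL61 against 3.89, 4.31 and 4.04 in Luc976, with no overlap. It fell by 0.67 on the log2 scale (SE 0.19, adjusted p = 0.0232) there, a call lost on leaving out any 1 of Luc976 sample 1, Luc976 sample 2, Luc976 sample 3, shVHL61 sample 1 and shVHL61 sample 3 (adjusted p from 0.0577 to 0.083). In shVHL61-KIM1A1 it fell by 0.59 on the log2 scale (SE 0.18, adjusted p = 0.0168) against shKIM1-A1, lost on leaving out any 1 of shKIM1-A1 sample 1, shVHL61-KIM1A1 sample 1 and shVHL61-KIM1A1 sample 3 (adjusted p from 0.0504 to 0.101).

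Among the signalling factors, STAT2 was higher wherever the KIM-1 hairpin was present. It stood at 64.2, 55.8 and 57.6 CPM in shVHL61-KIM1A1, 60.3, 57.6 and 54.7 in shKIM1-A1, 45.3, 46.5 and 44.4 in shVHL61 and 44.03, 43.3 and 41.8 in Luc976. All 6 samples with that hairpin exceeded all 6 without it. STAT2 rose by 0.42 on the log2 scale (SE 0.07, adjusted p = 0.000202) in shKIM1-A1 against Luc976 and rose by 0.38 on the log2 scale (SE 0.07, adjusted p = 0.000262) in shVHL61-KIM1A1 against shVHL61, and the interaction was -0.04 (95% interval -0.23 to 0.17, adjusted p = 0.838). In the library sets the change in shKIM1-A1 against Luc976 was 0.43 in set A and 0.41 in set B.

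IRF9, the DNA-binding partner of STAT2 in ISGF3, was higher in the double group, at 19.3, 19.1 and 19.7 CPM in shVHL61-KIM1A1, 16.2, 15.4 and 15.4 in shKIM1-A1, 16.3, 15.8 and 14.8 in shVHL61 and 17.3, 16.4 and 16.7 in Luc976. The shVHL61-KIM1A1 samples lay above all others. IRF9 rose by 0.31 on the log2 scale (SE 0.07, adjusted p = 0.00309) against shKIM1-A1 and rose by 0.31 on the log2 scale (SE 0.07, adjusted p = 0.00307) against shVHL61. With limma on log2(TPM + 1), IRF9 did not pass against shKIM1-A1 (0.12, adjusted p = 0.144). Against Luc976 it rose by 0.21 on the log2 scale (SE 0.07, adjusted p = 0.0271), lost on leaving out any 1 of Luc976 sample 2, Luc976 sample 3, shVHL61-KIM1A1 sample 2 and shVHL61-KIM1A1 sample 3 (adjusted p from 0.0512 to 0.0732). IRF1, which answers mainly to interferon gamma, stood at 46.2, 46.9 and 47.1 CPM in shVHL61-KIM1A1, 45.2, 52.6 and 48.6 in shKIM1-A1, 59.8, 53.5 and 54.1 in shVHL61 and 43.1, 47.1 and 49.2 in Luc976. The shVHL61 samples were the highest of the 4 groups. IRF1 rose by 0.27 on the log2 scale (SE 0.07, adjusted p = 0.0202) in shVHL61 against Luc976, lost without Luc976 sample 1 (adjusted p = 0.0927) and without shVHL61 sample 1 (adjusted p = 0.0741), and fell by 0.26 on the log2 scale (SE 0.07, adjusted p = 0.0103) in shVHL61-KIM1A1 against shVHL61, lost without shVHL61 sample 1 (adjusted p = 0.0556). IRF7, the amplifier of interferon alpha production, stood at 10.4, 12.9 and 11.5 CPM in shVHL61-KIM1A1, 9.21, 11.1 and 10.9 in shKIM1-A1, 9.82, 9.13 and 8.12 in shVHL61 and 10.8, 10.5 and 10.5 in Luc976. It rose by 0.36 on the log2 scale (SE 0.11, adjusted p = 0.0137) in shVHL61-KIM1A1 against shVHL61, lost without shVHL61 sample 3 (adjusted p = 0.0704) and without shVHL61-KIM1A1 sample 2 (adjusted p = 0.0761), and did not pass elsewhere.

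The RNA sensors rose in part. IFIH1 stood at 10.4, 8.06 and 8.49 CPM in shVHL61-KIM1A1, 9.48, 9.33 and 9.10 in shKIM1-A1, 6.71, 6.17 and 4.71 in shVHL61 and 6.10, 5.22 and 5.17 in Luc976. As for STAT2, the 6 samples with the KIM-1 hairpin all exceeded the 6 without it. IFIH1 rose by 0.76 on the log2 scale (SE 0.14, adjusted p = 0.00053) in shKIM1-A1 against Luc976 and rose by 0.61 on the log2 scale (SE 0.13, adjusted p = 0.00163) in shVHL61-KIM1A1 against shVHL61. Within the library sets these changes were 0.73 in set A and 0.83 in set B, and 0.30 in set A and 0.93 in set B, the value in set A for the double group not passing (adjusted p = 0.16).

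DDX58 stood at 20.4, 17.9 and 18.8 CPM in shVHL61-KIM1A1, 15.6, 12.8 and 16.7 in shKIM1-A1, 13.7, 18.2 and 19.2 in shVHL61 and 13.4, 14.3 and 11.6 in Luc976. The shVHL61-KIM1A1 samples lay above those of shKIM1-A1 and Luc976 and overlapped shVHL61. DDX58 rose by 0.54 on the log2 scale (SE 0.13, adjusted p = 0.00233) in shVHL61-KIM1A1 against Luc976, and against shKIM1-A1 it rose by 0.34 on the log2 scale (SE 0.13, adjusted p = 0.0386), lost on leaving out any 1 of shKIM1-A1 sample 1, shKIM1-A1 sample 2, shVHL61-KIM1A1 sample 1 and shVHL61-KIM1A1 sample 3 (adjusted p from 0.064 to 0.138). EIF2AK2, the kinase PKR that halts translation on double-stranded RNA, stood at 27.3, 23.1 and 19.96 CPM in shVHL61-KIM1A1, 30.3, 24.3 and 30.3 in shKIM1-A1, 28.7, 30.9 and 34.04 in shVHL61 and 28.1, 25.6 and 25.8 in Luc976. Its shVHL61-KIM1A1 samples were below those of shVHL61, and it fell by 0.41 on the log2 scale (SE 0.11, adjusted p = 0.00666) in that comparison. DDX60 rose by 0.47 on the log2 scale (SE 0.13, adjusted p = 0.0124) in shKIM1-A1 against Luc976, lost without shKIM1-A1 sample 1 (adjusted p = 0.0558), and fell by 0.50 on the log2 scale (SE 0.13, adjusted p = 0.00645) in shVHL61-KIM1A1 against shKIM1-A1.

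The remaining antiviral effectors were mostly low in these cells. ISG20, an exonuclease that degrades viral RNA, stood at 3.96, 3.32 and 3.77 CPM in shVHL61-KIM1A1, 3.05, 4.22 and 3.15 in shKIM1-A1, 2.19, 1.96 and 1.81 in shVHL61 and 2.52, 1.77 and 2.68 in Luc976. As for STAT2 and IFIH1, the 6 samples with the KIM-1 hairpin all exceeded the 6 without it. ISG20 rose by 0.89 on the log2 scale (SE 0.19, adjusted p = 0.00131) in shVHL61-KIM1A1 against shVHL61 and rose by 0.67 on the log2 scale (SE 0.19, adjusted p = 0.00662) against Luc976. In shKIM1-A1 it rose by 0.58 on the log2 scale (SE 0.19, adjusted p = 0.0251) against Luc976, lost without Luc976 sample 2 (adjusted p = 0.102) and without shKIM1-A1 sample 2 (adjusted p = 0.107).

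SAMD9, which restricts poxviruses, stood at 3.21, 3.45 and 2.39 CPM in shVHL61-KIM1A1, 4.53, 4.17 and 6.64 in shKIM1-A1, 3.21, 4.41 and 3.57 in shVHL61 and 2.95, 3.70 and 2.14 in Luc976. The third shKIM1-A1 sample was the highest of the 12, and the lowest of that group lay below the highest shVHL61 sample. SAMD9 rose by 0.79 on the log2 scale (SE 0.22, adjusted p = 0.0107) in shKIM1-A1 against Luc976, lost without Luc976 sample 3 (adjusted p = 0.0574) and without shKIM1-A1 sample 3 (adjusted p = 0.0789), and fell by 0.77 on the log2 scale (SE 0.22, adjusted p = 0.0096) in shVHL61-KIM1A1 against shKIM1-A1, lost without shKIM1-A1 sample 3 (adjusted p = 0.0718) and without shVHL61-KIM1A1 sample 3 (adjusted p = 0.0577). SAMD9L, its neighbour on chromosome 7, had 2.90, 2.003 and 1.67 CPM in shKIM1-A1 and 1.31, 1.22 and 1.31 in Luc976. It rose by 0.77 on the log2 scale (SE 0.25, adjusted p = 0.0274) there, lost on leaving out any 1 of Luc976 sample 1, Luc976 sample 2, Luc976 sample 3 and shKIM1-A1 sample 1 (adjusted p from 0.0613 to 0.157), and fell by 0.91 on the log2 scale (SE 0.26, adjusted p = 0.00923) in shVHL61-KIM1A1 against shKIM1-A1, lost without shKIM1-A1 sample 1 (adjusted p = 0.063). The OAS enzymes make a second messenger when they bind double-stranded RNA. OAS1 rose by 0.52 on the log2 scale (SE 0.18, adjusted p = 0.0269) in shVHL61-KIM1A1 against shVHL61, lost on leaving out any 1 of shVHL61 sample 2, shVHL61-KIM1A1 sample 1 and shVHL61-KIM1A1 sample 3 (adjusted p from 0.0517 to 0.169), while OAS3 fell by 0.19 on the log2 scale (SE 0.06, adjusted p = 0.0217) in the same comparison, lost without shVHL61 sample 1 (adjusted p = 0.105) and without shVHL61-KIM1A1 sample 3 (adjusted p = 0.0604). OASL and MX1 stayed at 1.70 CPM or below in every sample and did not pass.

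PARP9 and DTX3L, which form a complex that modifies histones and whose genes share a promoter region on chromosome 3, passed in opposite directions in the double group against Luc976. PARP9 stood at 34.6, 37.1 and 33.6 CPM in shVHL61-KIM1A1, 34.01, 29.1 and 31.9 in shKIM1-A1, 31.1, 35.3 and 33.6 in shVHL61 and 25.99, 29.8 and 26.7 in Luc976. It rose by 0.35 on the log2 scale (SE 0.08, adjusted p = 0.00199) in shVHL61-KIM1A1 against Luc976, and the shVHL61 samples also lay above Luc976, where PARP9 rose by 0.28 on the log2 scale (SE 0.08, adjusted p = 0.029), lost on leaving out any 1 of Luc976 sample 1, Luc976 sample 3, shVHL61 sample 2 and shVHL61 sample 3 (adjusted p from 0.091 to 0.134). DTX3L stood at 69.5, 64.2 and 61.5 CPM in shVHL61-KIM1A1, 73.4, 63.8 and 73.8 in shKIM1-A1, 76.7, 89.2 and 76.8 in shVHL61 and 70.1, 79.99 and 75.8 in Luc976. The shVHL61-KIM1A1 samples lay below those of shVHL61 and Luc976. DTX3L fell by 0.31 on the log2 scale (SE 0.08, adjusted p = 0.00502) in shVHL61-KIM1A1 against shVHL61, and against Luc976 it fell by 0.21 on the log2 scale (SE 0.08, adjusted p = 0.0386), lost on leaving out any 1 of Luc976 sample 2, Luc976 sample 3, shVHL61-KIM1A1 sample 2 and shVHL61-KIM1A1 sample 3 (adjusted p from 0.0851 to 0.18).

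PARP14, a mono-ADP-ribosyltransferase, was higher in every hairpin group than in Luc976. It stood at 102, 85.4 and 88.3 CPM in shVHL61-KIM1A1, 112, 97.1 and 106 in shKIM1-A1, 84.4, 91.6 and 92.7 in shVHL61 and 71.97, 80.2 and 66.3 in Luc976. All 9 samples with a VHL or KIM-1 hairpin exceeded the 3 of Luc976. Against Luc976 it rose by 0.33 on the log2 scale (SE 0.08, adjusted p = 0.00309) in shVHL61-KIM1A1, rose by 0.53 on the log2 scale (SE 0.08, adjusted p = 0.000161) in shKIM1-A1 and rose by 0.30 on the log2 scale (SE 0.08, adjusted p = 0.0204) in shVHL61, the call in shVHL61 being lost on leaving out any 1 of Luc976 sample 1, Luc976 sample 3, shVHL61 sample 2 and shVHL61 sample 3 (adjusted p from 0.0735 to 0.114).

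The interaction sets the effect of the KIM-1 hairpin in cells with shVHL61 beside its effect in cells without it. It was above 0 for IFITM1 (1.95, adjusted p = 1.71e-07), IFITM2 (2.54, adjusted p = 1.43e-06), IFITM3 (1.43, adjusted p = 3.52e-06), IFI44L (0.78, adjusted p = 0.000156), IFI6 and IRF9 (0.41, adjusted p = 0.0116). It was below 0 for HERC5 (-0.52, adjusted p = 0.0154), PARP14 (-0.49, adjusted p = 0.00701), HERC6, SAMD9, EIF2AK2 and IRF1. IFITM1 changed direction, with 0.96 in cells with shVHL61 and -0.98 in cells without it. IFI44L kept its direction at a smaller size, with -0.69 and -1.46. HERC5 kept its direction as well, with 0.27 and 0.79. The knockdown of HAVCR1 itself was -0.78 in cells with shVHL61 and -1.08 in cells without it (interaction 0.31, adjusted p = 0.152). HAVCR1 was higher in shVHL61-KIM1A1 than in shKIM1-A1, by 0.55 on the log2 scale (adjusted p = 0.000476). The part of this difference in the members' interactions was not tested. The calls of 5 members did not hold when single libraries were left out. IFI6 was lost on leaving out any 1 of Luc976 sample 1, Luc976 sample 2, shVHL61 sample 2, shKIM1-A1 sample 1, shKIM1-A1 sample 3, shVHL61-KIM1A1 sample 2 and shVHL61-KIM1A1 sample 3 (adjusted p from 0.0515 to 0.0897). HERC6 was lost on leaving out any 1 of Luc976 sample 3, shVHL61 sample 3, shKIM1-A1 sample 3, shVHL61-KIM1A1 sample 2 and shVHL61-KIM1A1 sample 3 (adjusted p from 0.0624 to 0.0863). SAMD9 was lost on leaving out any 1 of Luc976 sample 3, shVHL61 sample 2, shKIM1-A1 sample 3 and shVHL61-KIM1A1 sample 3 (adjusted p from 0.0539 to 0.0641). EIF2AK2 was lost on leaving out any 1 of Luc976 sample 2, Luc976 sample 3, shVHL61 sample 2, shVHL61 sample 3, shKIM1-A1 sample 1, shKIM1-A1 sample 3, shVHL61-KIM1A1 sample 2 and shVHL61-KIM1A1 sample 3 (adjusted p from 0.0522 to 0.0904), and IRF1 was lost on leaving out any 1 of Luc976 sample 1, shVHL61 sample 1, shVHL61 sample 3, shKIM1-A1 sample 2, shKIM1-A1 sample 3, shVHL61-KIM1A1 sample 1, shVHL61-KIM1A1 sample 2 and shVHL61-KIM1A1 sample 3 (adjusted p from 0.0503 to 0.0865). The 5 members that passed and were higher with the KIM-1 hairpin both with and without shVHL61 were STAT2, IFIH1, HERC5, IFIT1 and ISG20, or 14.7% of the 34, where 7.03% of all tested genes were higher in both comparisons. Apart from HERC5 their interaction did not pass, with IFIH1 at -0.14 (95% interval -0.55 to 0.26, adjusted p = 0.65), IFIT1 at 0.09 (95% interval -0.23 to 0.40, adjusted p = 0.732) and ISG20 at 0.31 (95% interval -0.26 to 0.87, adjusted p = 0.461). STAT2 and IFIH1 kept both calls whichever single library was left out. In some of those fits HERC5 lost its call with shVHL61, and IFIT1 and ISG20 lost theirs without it.

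**Figure D4:**
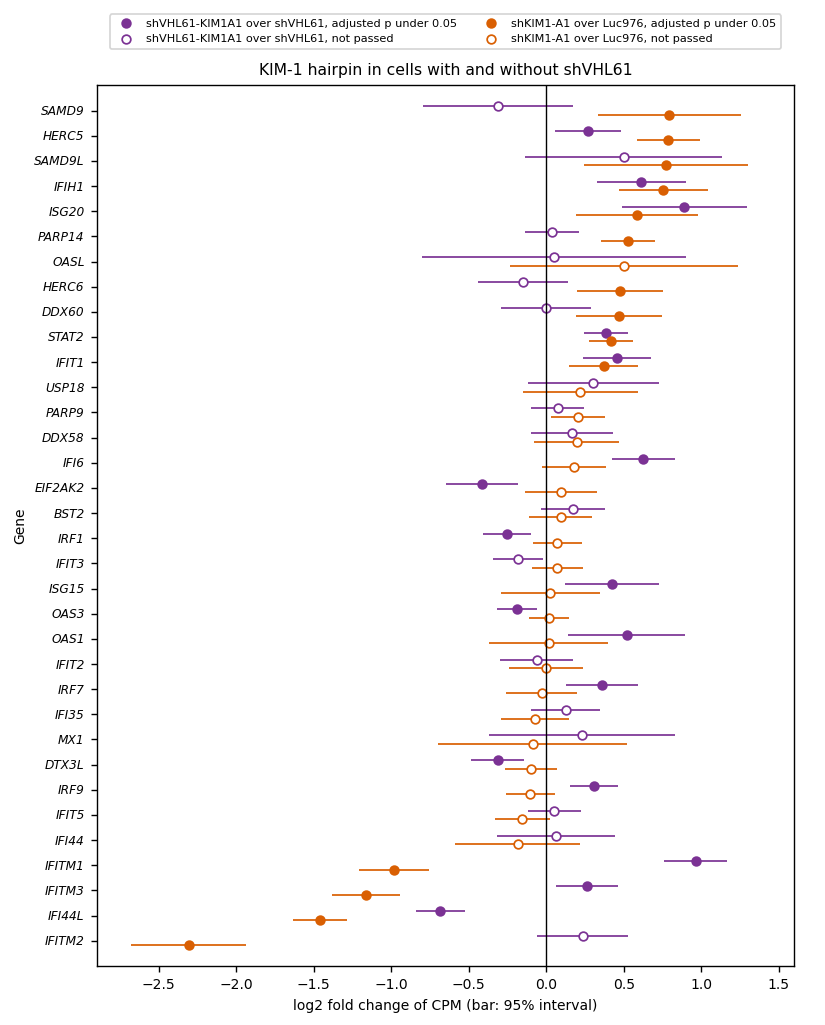
Log2 fold change of CPM with its 95% interval for the KIM-1 hairpin in cells with shVHL61 (shVHL61-KIM1A1 over shVHL61, purple) and without it (shKIM1-A1 over Luc976, orange) for the 34 tested members, with filled points past the adjusted p threshold of 0.05. The IFITM genes have orange points left of 0 and purple points right of it (open for IFITM2), while STAT2, IFIH1, IFIT1 and ISG20 have both points right of 0.

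Interferon genes themselves were close to absent. Of 22 interferon genes in the table, 18 had 0 counts in the shVHL61-KIM1A1 samples and 19 had 0 counts in each other group. IFNB1 had 1 count in a single shVHL61-KIM1A1 sample. IFNL4, the only ligand with enough counts to be tested, had 1, 1 and 2 counts in shVHL61-KIM1A1, 8, 8 and 10 in shKIM1-A1, 14, 8 and 8 in shVHL61 and 6, 11 and 10 in Luc976. Its shVHL61-KIM1A1 samples were below all others, and it fell by 2.58 on the log2 scale (SE 0.54, adjusted p = 0.000863) against Luc976.

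Of 10 receptor and kinase genes, 5 were higher and 2 lower in shVHL61-KIM1A1 against Luc976 (25.2% and 26.3% of all genes), 2 higher and 0 lower in shKIM1-A1 (14.8% and 16.6%), and 1 higher and 3 lower in shVHL61 (7.21% and 9.44%). The receptor chains IFNAR2, IFNGR1 and IL10RB had their highest values in the double group. IFNAR2, a chain of the type I receptor, stood at 42.7, 41.1 and 42.5 CPM in shVHL61-KIM1A1, 28.5, 28.6 and 30 in shKIM1-A1, 26.1, 28.4 and 29.1 in shVHL61 and 25.8, 25.3 and 25.2 in Luc976. Against Luc976, the double group had log2 fold changes of 0.73 (SE 0.07, adjusted p = 2.2e-07) for IFNAR2, 0.68 (SE 0.09, adjusted p = 1.96e-05) for IFNGR1 of the interferon gamma receptor and 0.60 (SE 0.08, adjusted p = 1.58e-05) for IL10RB, a chain of the type III receptor. IFNGR2 went the other way, with -0.35 (SE 0.06, adjusted p = 0.000227) in shVHL61-KIM1A1 and -0.45 (SE 0.06, adjusted p = 0.000118) in shVHL61. IFNAR1 passed in no comparison, with -0.05, adjusted p = 0.643 in the double group, and IFNLR1 fell by 0.42 on the log2 scale (SE 0.14, adjusted p = 0.047) in shVHL61 against Luc976.

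**Figure D5:**
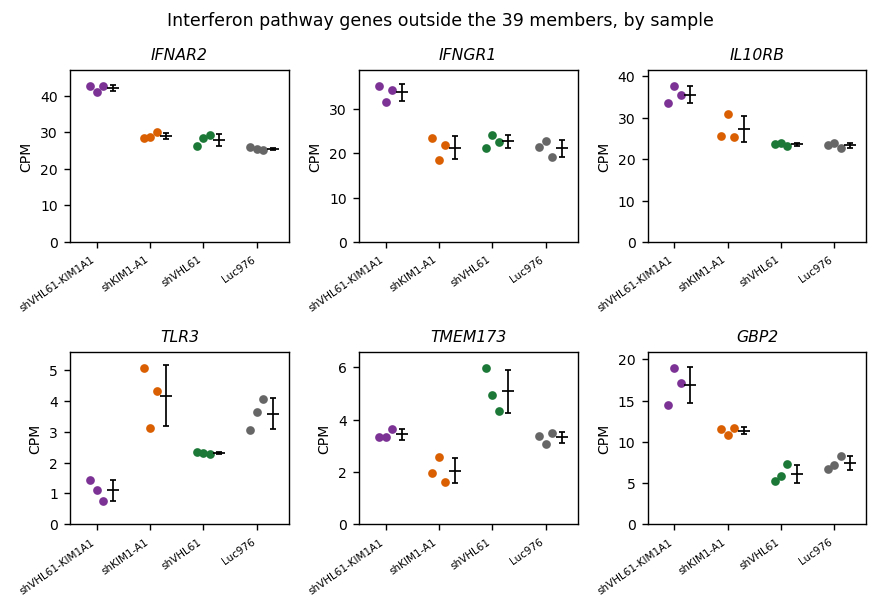
CPM in each sample (points) with the mean and SD of 3 samples (black bars) for 3 interferon receptor chains, the RNA sensor TLR3, TMEM173 (STING) and the interferon-induced GBP2, axes from 0. IFNAR2, IFNGR1 and IL10RB are highest and TLR3 is lowest in shVHL61-KIM1A1.

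Of 16 sensors and adaptors outside the 39, 5 were higher and 3 lower in shVHL61-KIM1A1 against Luc976, 1 higher and 3 lower in shKIM1-A1, and 3 higher and 1 lower in shVHL61. In either direction that is 8, 4 and 4 of 16, where 51.4%, 31.4% and 16.7% of all genes passed, so the first share is near the background and the second below it. TLR3, the endosomal sensor of double-stranded RNA, stood at 1.44, 1.11 and 0.743 CPM in shVHL61-KIM1A1, 5.05, 3.11 and 4.33 in shKIM1-A1, 2.33, 2.31 and 2.28 in shVHL61 and 3.05, 3.65 and 4.04 in Luc976. All double group samples were below all others, and TLR3 fell by 1.71 on the log2 scale (SE 0.24, adjusted p = 2.36e-05) against Luc976. The DNA sensor IFI16 rose by 0.78 on the log2 scale (SE 0.07, adjusted p = 1.09e-07) in shVHL61-KIM1A1 and rose by 0.41 on the log2 scale (SE 0.07, adjusted p = 0.000521) in shVHL61. TMEM173, which encodes the adaptor STING, fell by 0.70 on the log2 scale (SE 0.19, adjusted p = 0.0094) in shKIM1-A1 and rose by 0.62 on the log2 scale (SE 0.16, adjusted p = 0.015) in shVHL61.

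Of 14 negative regulators, 4 were higher and 4 lower in shVHL61-KIM1A1, 3 higher and 2 lower in shKIM1-A1, and 2 higher and 1 lower in shVHL61, all against Luc976. The shares that passed, 57.1%, 35.7% and 21.4%, were near those of all genes (51.4%, 31.4% and 16.7%). SOCS3, an inhibitor of JAK kinases, had 60.5, 73.9 and 68.5 CPM in shVHL61-KIM1A1, 41.3, 48.1 and 42.1 in shKIM1-A1, 52.4, 51.4 and 50.8 in shVHL61 and 50.98, 50.5 and 59.8 in Luc976. SOCS3 rose by 0.33 on the log2 scale (SE 0.09, adjusted p = 0.00381) in shVHL61-KIM1A1 and fell by 0.29 on the log2 scale (SE 0.09, adjusted p = 0.0169) in shKIM1-A1.

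Of 46 tested interferon-induced genes beyond the 39, 23 were higher and 6 lower in shVHL61-KIM1A1 against Luc976 (median 0.23, against 0.01 over all genes), 14 higher and 1 lower in shKIM1-A1 (0.09 against 0.01), and 7 higher and 4 lower in shVHL61 (0.06 against -0.01). As a share of the 46, 63.0%, 32.6% and 23.9% passed, where 51.4%, 31.4% and 16.7% of all genes did. GBP2, a guanylate-binding protein induced by interferon gamma, stood at 14.5, 18.96 and 17.2 CPM in shVHL61-KIM1A1, 11.6, 10.9 and 11.7 in shKIM1-A1, 5.20, 5.92 and 7.29 in shVHL61 and 6.68, 7.24 and 8.33 in Luc976. It rose by 1.46 on the log2 scale (SE 0.13, adjusted p = 3.3e-07) in shVHL61-KIM1A1 against shVHL61 and rose by 0.62 on the log2 scale (SE 0.13, adjusted p = 0.00187) in shKIM1-A1 against Luc976. TNFSF10, the death ligand TRAIL, rose by 0.89 on the log2 scale (SE 0.07, adjusted p = 2.42e-07) in shKIM1-A1, and LAP3, an aminopeptidase, fell by 0.68 on the log2 scale (SE 0.06, adjusted p = 8.22e-08) in shVHL61-KIM1A1, both against Luc976.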

How the data were processed

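Messenger RNA was measured in 12 HK-2 samples, 4 hairpin groups of 3, grouped by the sample titles. Per the labels' protocols, RNA was extracted with Trizol and libraries were made with a TruSeq RNA kit. The deposited table holds, per the file headers, expected counts (estimated reads per gene, with 89.7% to 90.7% of values whole within 1e-06), TPM and FPKM values, all made by the authors. The FPKM values were not used for results. The authors' deposited table also gives a fold, the linear ratio of a hairpin group over Luc976,. Per the submitters' processing notes, Bowtie 0.12.2, mm8 and mm9 were named. Both are mouse builds while the gene symbols are human; the human build, annotation, quantifier and strand setting were not given in the sources used here. For that reason no gene coordinates are printed beyond RefSeq promoters.

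Expected counts were rounded, genes with low counts were removed with filterByExpr (minimum count 10), libraries were scaled by TMM, and 1 quasi-likelihood model with 4 groups was fitted in edgeR 4.0.16 (R 4.3.3; biological coefficient of variation 6.81%, 8 residual degrees of freedom). Tests are two-sided, with Benjamini-Hochberg adjustment over all 14230 genes. CPM are on TMM-scaled library sizes. Counts for all 12 samples were simulated with 1 biological coefficient of variation for all genes and fitted with the same 4-group model. In shKIM1-A1 against Luc976, 79 of 100 genes changed 1.5-fold and 91 of 100 changed 2-fold were called. Real genes vary by different amounts, which this simulation left out. Leave-one-out fits with 1 sample fewer kept the common model. The GC-trend sets were formed by the sign of the correlation between a library's deviation from its group mean and transcript GC content: set A holds Luc976 1 and 3, shVHL61 1, shKIM1-A1 2 and shVHL61-KIM1A1 2 and 3, and set B the rest, so a group of a set can hold 1 sample, assumed to vary like the others. The within-set fits were chosen after seeing the data. DESeq2 1.42.0, limma 3.58.1 on log2(TPM + 1) and log2(TPM + 0.1), RLE scaling, no filter, 2-group fits, a replicate block, the library set as a term and leaving out each sample were also run.

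Members and gene lists were chosen with earlier results of these data known. All 39 members could be named. Full statistics were set for the IFITM genes, the signalling factors, the sensors and the 8 members with the largest changes past the threshold, and, from each other list, for up to 4 genes with the smallest p and for measured ligands and receptors. Promoters and gene order came from RefSeq GRCh38.p14, with DDX58 matched as RIGI.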

Additional observations from a re-analysis of the deposited data

Results flagged for a closer look

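For 12 members the effect of the KIM-1 hairpin differed between cells with and without the VHL hairpin, by the interaction term of the edgeR model (adjusted p under 0.05 over all genes). HAVCR1 mRNA changed by -0.78 on the log2 scale with the VHL hairpin and by -1.08 without it. The part of that difference in the members' interactions was not tested. The interaction was above 0 for IFITM2 (2.54), IFITM1 (1.95), IFITM3 (1.43), IFI44L (0.78), IFI6 (0.45) and IRF9 (0.41). It was below 0 for SAMD9 (-1.11), HERC6 (-0.63), HERC5 (-0.52), EIF2AK2 (-0.51), PARP14 (-0.49) and IRF1 (-0.33).

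Within the library sets the interaction was 2.18 in set A and 1.73 in set B for IFITM1, 2.46 in set A and 2.36 in set B for IFITM2, 1.25 in set A and 1.31 in set B for IFITM3 and 0.72 in set A and 0.93 in set B for IFI44L, each past the threshold in both sets, as was PARP14 with -0.45 in set A and -0.30 in set B. In set B alone HERC5 passed, with -0.20 in set A and -0.64 in set B, IFI6 with 0.21 in set A and 0.56 in set B and EIF2AK2 with -0.28 in set A and -0.49 in set B, their adjusted p in set A being 0.428, 0.438 and 0.187. IRF1 passed in set A alone, with -0.55 in set A and -0.21 in set B (adjusted p = 0.185 in set B). SAMD9 had -0.86 in set A and -0.91 in set B, HERC6 had -0.60 in set A and -0.36 in set B and IRF9 had 0.39 in set A and 0.39 in set B, and these 3 passed in neither set (adjusted p from 0.0511 to 0.219). All 12 had the same sign in both sets. They were picked by a fit of the same samples that the sets divide, so this agreement was close to forced and is not independent support.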

How the results depend on the processing

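Of 79 member calls over the 6 comparisons, none changed sign under any alternative run. These runs used the samples that gave the calls, so a kept sign is not independent support. DESeq2 kept 74, RLE scaling 79, the library set as a term 79, no filter 77, limma on log2(TPM + 1) and on log2(TPM + 0.1) 65 each, set A alone 57 and set B alone 58; fits of only the groups compared kept 67 of 67. Leaving out 1 sample kept 439 of 546. The number higher in shVHL61 against Luc976 (5) was 9 with the library set as a term and 3 with limma at either pseudocount; the number lower (1) was 0 in set B. The number higher in shKIM1-A1 against Luc976 (10) was 6 in set A. The number lower in shVHL61-KIM1A1 against Luc976 (1) was 2 with the set as a term, 3 in set A and 0 in set B. In shVHL61-KIM1A1 against shKIM1-A1, 9 higher and 6 lower became 5 and 12 with limma at either pseudocount, and the number lower was 3 in set A. For the interaction, 6 below 0 became 3 in each set. With limma on log2(TPM + 1), the higher calls lost in shVHL61-KIM1A1 against shKIM1-A1 were DDX58 (adjusted p = 0.399), IFI6 (0.186), IRF9 (0.144) and IFIT5 (0.107). The interaction of IRF9 was also lost there (adjusted p = 0.0758). DESeq2 lost the call of IRF9 in shVHL61-KIM1A1 against Luc976 (adjusted p = 0.0606). Fewer samples were fitted within a set, and for the other settings the cause was not tested. Without 1 sample, the numbers higher and lower ranged from 2 to 7 and 0 to 1 in shVHL61, 6 to 10 and 4 to 4 in shKIM1-A1 and 11 to 14 and 0 to 3 in shVHL61-KIM1A1, all against Luc976, 8 to 11 and 4 to 5 in the double group against shVHL61, 7 to 11 and 4 to 8 against shKIM1-A1, and 5 to 7 and 2 to 6 for the interaction. Over all genes, the set as a term gave 4080 calls in shVHL61 against Luc976 (2370 without it) and 4764 for the interaction (2811 without it). The sets were formed from deviations in these same data, so calls kept or gained with this term are not independent support.

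No pairing of the samples by replicate number was seen. Deviations of 18 same-numbered pairs correlated from -0.49 to 0.38, 6 of them over 0.1, and 0 of 12 samples correlated best with their own number. These deviations also carried the GC trend, so the check cannot tell whether same-numbered samples shared a batch. With the replicate block 70 of the 79 calls were kept, and the number lower in shVHL61-KIM1A1 against Luc976 was 0 against 1 without the block. The depth limits low members such as MX1 (group means of 1.13 to 1.32 CPM) and OASL (0.53 to 0.94 CPM), whose intervals were wide.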

Other observations

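Some genes next to the IFITM genes passed as well, in mixed directions in shKIM1-A1 against Luc976. Over all tested genes, 31.4% passed in that comparison and 42.0% in shVHL61-KIM1A1 against shKIM1-A1. The neighbours' changes were smaller than those of the IFITM genes, with PKP3 in shKIM1-A1 coming close to IFITM1. In RefSeq gene order on chromosome 11, the 8 with enough counts among the nearest 5 genes on each side were SIRT3, PSMD13, ATHL1, B4GALNT4, PKP3, SIGIRR, ANO9 and PTDSS2. In shKIM1-A1 against Luc976, where IFITM1, IFITM2 and IFITM3 changed by -0.98, -2.31 and -1.16 on the log2 scale, edgeR gave -0.93 for PKP3 (SE 0.19, adjusted p = 0.00162), which encodes a desmosome protein. PTDSS2 had -0.30 (adjusted p = 0.0398), PSMD13 had -0.26 (adjusted p = 0.00406) and ANO9 had 0.43 (adjusted p = 0.00892), and the other 4 did not pass. In shVHL61-KIM1A1 against shKIM1-A1, PKP3 had -0.47 (adjusted p = 0.099), PSMD13 had 0.23 (adjusted p = 0.00535), ANO9 had 0.64 (adjusted p = 0.000183), ATHL1 had 0.66 (adjusted p = 0.00091) and B4GALNT4 had 0.48 (adjusted p = 0.000434), while the IFITM genes had 1.83, 2.34 and 1.55.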
